A study of Rattus norvegicus with 79 samples.

Results

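The 7 genes described here are the members of the major histocompatibility complex (MHC) and of the interferon response that were picked out for these arrays: B2m, RT1-CE12, RT1-Ba, Cd74, Rsad2, Irf1 and Irf8. Every probe set whose only gene symbol in the probe-to-gene table was one of these was taken, which gave 14 of the 8799 probe sets on the array. They are 7 of the 4736 genes that the array named singly. Of the 14 probe sets, 8 passed the filter on low signal and entered the tests, and they stood for 6 of the 7 genes. All 4 probe sets of Cd74, 1 of 2 of Irf1 and 1 of 3 of RT1-Ba lay below the filter and are given as levels. A further probe set that carried B2m among several symbols was not used.

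RNA was measured on 79 arrays, each from 1 male Fisher-344 rat, taken from the cell layer of hippocampal field CA1. The young were 3 months old, the aged 24 months, and all were killed 24 hours after the last trial. Cage controls stayed in their cages (3 young, 5 aged), yoked rats swam with no platform (6 young, 8 aged), visible platform rats were trained with a platform in sight (4 young, 8 aged), and hidden platform rats searched for one out of sight (6 young). The aged hidden platform rats were labelled unimpaired (13) or impaired (10) in learning, and 16 further aged hidden platform rats are marked B in their titles, a letter left unexplained there and used here as it stands. All groups share the strain, the sex, the dissection by micro punch and 2 rounds of RNA amplification before labelling. A punch holds neurons, glia and vessels, so that fewer cells of a type and less RNA per cell cannot be told apart.

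MHC class I molecules are cell surface proteins that show peptides from inside the cell to T lymphocytes. They consist of a variable heavy chain, which RT1-CE12 encodes in the rat, and the constant light chain beta-2 microglobulin, the product of B2m. MHC class II molecules show peptides taken up from outside and are made mainly by microglia, macrophages and B lymphocytes. RT1-Ba encodes a class II alpha chain, and Cd74 encodes the invariant chain that escorts class II chains through the cell. Interferons act through the JAK and STAT proteins and through interferon regulatory factors, among them Irf1 and Irf8, and they raise the expression of both MHC classes and of antiviral genes such as Rsad2, which encodes viperin. In the brain, class I genes are also transcribed in neurons, and class I and class II genes are known to be higher in the hippocampus of old rodents.

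The stretch before the transcription start is shown for the pair of genes called in a comparison, B2m and RT1-CE12, and for Rsad2, the antiviral gene. Each run is the 250 bases before the annotated start, 5′ to 3′ along the gene, from RefSeq's annotation of GRCr8: chr3:129549080-129549329 (plus strand) for B2m, chr20:3347226-3347475 (minus strand) for RT1-CE12 and chr6:48788121-48788370 (minus strand) for Rsad2. Capitals mark a match to the core of the interferon-stimulated response element (GAAA, any 2 bases, GAAA), searched on both strands.
B2m: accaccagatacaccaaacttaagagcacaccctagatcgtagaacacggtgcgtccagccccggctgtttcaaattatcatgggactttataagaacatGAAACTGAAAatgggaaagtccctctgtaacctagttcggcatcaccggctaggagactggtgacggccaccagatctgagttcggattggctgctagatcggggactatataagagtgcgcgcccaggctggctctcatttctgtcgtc
RT1-CE12: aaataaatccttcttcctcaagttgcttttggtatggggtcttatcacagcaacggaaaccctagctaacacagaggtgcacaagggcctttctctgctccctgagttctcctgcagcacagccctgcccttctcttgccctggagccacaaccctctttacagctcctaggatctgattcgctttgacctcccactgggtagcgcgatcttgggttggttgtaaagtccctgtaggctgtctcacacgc
Rsad2: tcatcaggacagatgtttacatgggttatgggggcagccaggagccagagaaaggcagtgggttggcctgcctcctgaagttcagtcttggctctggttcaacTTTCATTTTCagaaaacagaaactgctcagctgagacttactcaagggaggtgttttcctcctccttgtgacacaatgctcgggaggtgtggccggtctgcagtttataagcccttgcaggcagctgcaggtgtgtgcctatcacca
In B2m the match begins 150 bases before the start, and in Rsad2 it begins 147 bases before the start and lies on the opposite strand, so that it reads TTTCATTTTC here. Promoter windows of 300 bases (250 before the start and 50 after it) were available for all 7 genes. A gamma interferon activated site, TTCNNNGAA, was matched once in Irf1 (at -142) and at 2 places in Irf8 (at -180 and -161), and the Y box CTGATTGG of class II promoters was matched in RT1-Ba (at -46) and in Irf8 (at -132). No match to any of these 3 motifs was found in the windows of RT1-CE12 and Cd74. Among the 33469 promoter windows of the same length, 3.92% held the response element core, 8.87% the activated site and 3.50% the Y box, searched on both strands. The motifs were chosen after the member sequences had been seen, and a match describes letters and not a bound site.

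Of the 8740 probe sets that were not controls, 5244 were tested. The median Spearman correlation of an array with the other arrays lay between 0.223 and 0.940, with a median of 0.920, and it was under 0.85 on 14 arrays, called arrays of low correlation below. These were 2 of 3 young cage, 2 of 4 young visible, 1 of 6 young hidden, 1 of 5 aged cage, 1 of 8 aged yoked, 4 of 8 aged visible, 1 of 13 unimpaired and 2 of 10 impaired arrays, and none among the 6 young yoked and 16 B arrays. The mean log2 ratio of 3' to 5' signal of the control transcripts, which is higher where RNA is shortened, lay between 2.56 and 3.70 in 9 groups and was 1.07 in young cage controls. Low ratios also occurred on single arrays of other groups: -0.56 in aged visible platform rat 68, -0.31 in impaired rat 83, -0.04 in aged yoked rat 63, 0.00464 in young visible platform rat 65 and 0.83 in aged visible platform rat 67. These arrays are of low correlation, while others of low correlation, such as impaired rat 8 (3.38), had no low ratio. Without the 14 arrays, 59 of the 96 differences (8 tested probe sets in 12 comparisons of 2 conditions) moved by over 1.5 times and 17 changed sign, and the values without them are given for the differences described most. Differences are on the scale log2(signal + 15) with the standard error after ±, adjusted p-values are from limma with Benjamini-Hochberg adjustment over the 5244 probe sets, and called means an adjusted p under 0.05.

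RT1-CE12, the class I heavy chain, was higher in aged than in young rats. Its probe set M24026_f_at belongs to a family of near-identical class I sequences, so the signal can include other class I genes. The 3 young cage rats read 478.6, 644.7 and 1564.0, and the 4 young visible platform rats 573.6, 830.0, 1183.3 and 1344.1. The 6 young yoked rats lay between 671.6 and 1240.4 with a median of 914.4, and the 6 young hidden platform rats between 493.6 and 1403.0 with a median of 938.3. The young arrays thus spread over a similar range in each treatment, with the highest and lowest cage values and the lowest visible and hidden values on arrays of low correlation. The 5 aged cage rats read 569.2, 875.7, 1265.7, 1914.1 and 2120.7. The 8 aged yoked rats lay between 1025.6 and 2194.6 with a median of 1500.7, and the 8 aged visible platform rats between 809.0 and 1370.3 with a median of 1071.55. Of the aged hidden platform rats, the unimpaired lay between 912.1 and 1825.2 (median 1214.3), the impaired between 676.0 and 1806.0 (median 1253.05) and the B rats between 978.2 and 1724.4 (median 1352.15). The medians of all 6 aged groups were above those of all 4 young groups, while single animals overlapped between the ages.

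Adjusted for treatment over 63 arrays without the B rats, RT1-CE12 was higher in aged rats by 0.45 ± 0.13 on the log2 scale (adjusted p = 0.0319), and 38 of 44 aged rats lay above the young mean of the same treatment. It was the only member called among 8 probe sets, in a comparison that called 5.13% of all probe sets tested, 3.20% as higher and 1.93% as lower with age. Within treatments the difference was 0.61 ± 0.34 in cage controls, 0.70 ± 0.25 in yoked rats, 0.16 ± 0.29 in visible platform rats and 0.35 ± 0.21 in hidden platform rats, and the interaction of age with treatment had an adjusted p of 0.806. The B rats were set against young hidden platform rats in a separate fit, where the difference was 0.53 ± 0.21 (adjusted p = 0.455), and it was 0.35 without the array of young hidden platform rat 39, which is of low correlation. Of the 11 alternatives of that comparison 1, array quality weights, called it (adjusted p = 0.0359), within a range to 0.646. With those weights 13.5% of all probe sets were called there.

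The age call of RT1-CE12 depended on single young arrays and on the scaling. Without young cage rat 70 the difference was 0.40 (adjusted p = 0.0772), without young cage rat 74 it was 0.42 (adjusted p = 0.0604), without young hidden platform rat 39 it was 0.39 (adjusted p = 0.0554), and without young yoked rat 58 it was 0.41 (adjusted p = 0.0617), so that none of these 4 fits called it, while the other 59 fits that left out 1 array did. Without the 14 arrays of low correlation it was 0.42 ± 0.13 (adjusted p = 0.0208), and when the correlation was taken over the tested probe sets alone, which left out 23 arrays, it was 0.28 (adjusted p = 0.176). It also missed the threshold with no filter on low signal (adjusted p = 0.0547), with quantile normalization (adjusted p = 0.0861) and with centring on array medians (adjusted p = 0.197), with differences of 0.43 to 0.45. Over the 12 alternatives other than leaving out 1 array, the difference ranged from 0.28 to 0.46 and the adjusted p from 0.00655 to 0.197.

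**Figure D1:**
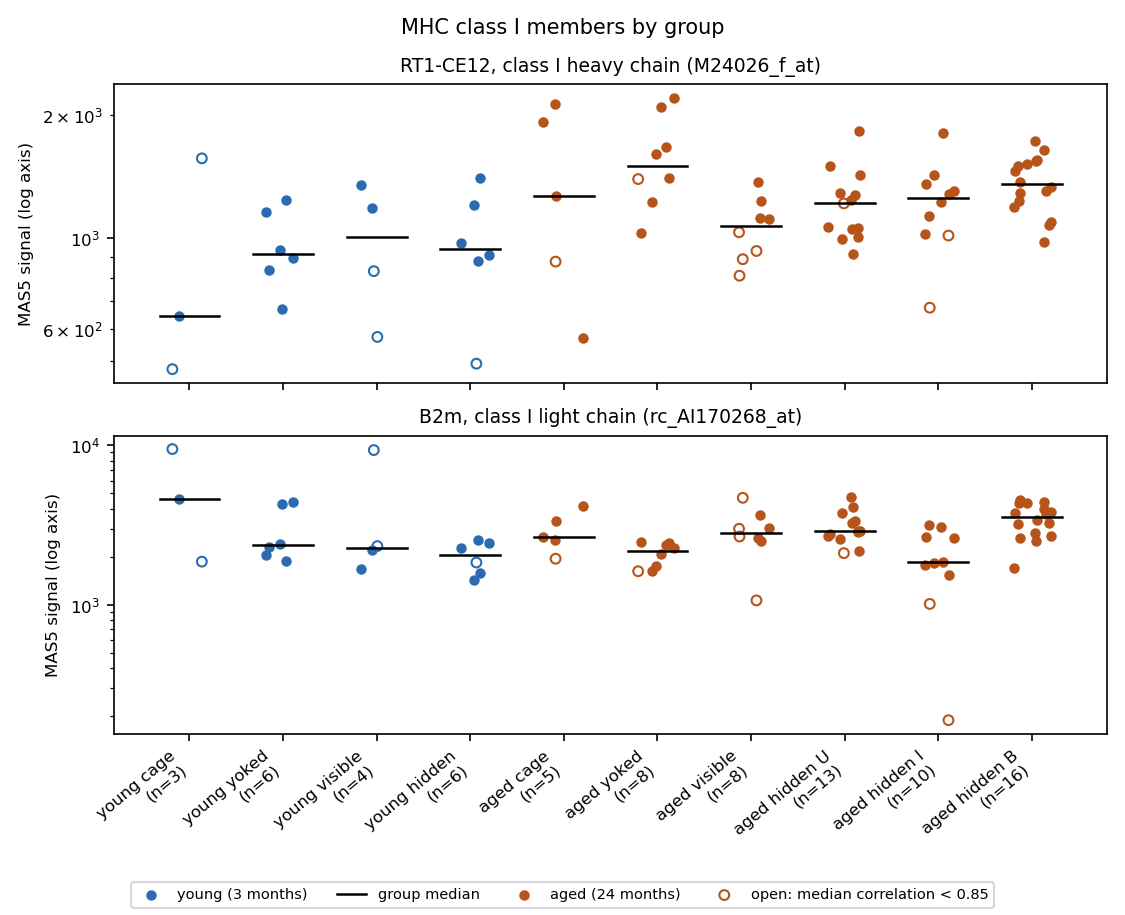
MAS5 signal on a log axis (vertical) of RT1-CE12 (top) and B2m (bottom) on each of the 79 arrays by group (horizontal; U unimpaired, I impaired, B the unexplained letter), with the group median as a line and arrays of low correlation as open circles. The RT1-CE12 medians of the aged groups, 1071.55 to 1500.7, lie above those of the young groups, 644.7 to 1006.65, and the lowest B2m value, 188.7, is an open circle in the impaired group.

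B2m, the class I light chain, showed no such age difference and instead set the B rats apart from the impaired rats. The 10 impaired rats lay between 188.7 and 3136.8 with a median of 1841.4. In the 13 unimpaired rats the signal lay between 2103.7 and 4739.3 with a median of 2893.6, and in the 16 B rats between 1692.3 and 4508.0 with a median of 3543.15. The lowest impaired values, 188.7 in rat 83 and 1010.4 in rat 8, were on arrays of low correlation, and the groups overlapped. B rats were higher than impaired rats by 1.03 ± 0.24 (adjusted p = 0.00563), and 16 of 16 B rats lay above the impaired mean of log2 values. That mean includes the 188.7 of rat 83, and the lowest B value, 1692.3, lay below the impaired median of 1841.4. This comparison called 12.0% of all probe sets tested, 5.80% as higher and 6.20% as lower in B rats, and B2m was the 1 member called of 8.

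Leaving out any 1 of the 60 arrays kept the call, with differences from 0.70 to 1.14, the lowest without impaired rat 83. Without the 14 arrays of low correlation the difference was 0.58 ± 0.15 (adjusted p = 0.0122), and without the 23 arrays of the stricter choice it was 0.41 (adjusted p = 0.140), which did not pass. Over the 12 alternatives the adjusted p ranged from 0.00494 to 0.140. The size of the difference thus moved with the arrays that were kept. For B2m, impaired minus unimpaired was -0.89 ± 0.28 (unadjusted p = 0.00269, adjusted p = 0.312), a difference that shares the impaired arrays with the one above and that was -0.55 without rat 83 and -0.47 ± 0.15 without the arrays of low correlation. No probe set among the 5244 passed in impaired against unimpaired rats, where 677 had an unadjusted p under 0.05. B and unimpaired rats differed by 0.15 ± 0.23 (adjusted p = 0.958).

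In the other groups B2m was most variable among young rats. The 3 young cage rats read 1860.5, 4616.1 and 9444.7, and the 4 young visible platform rats 1661.1, 2203.2, 2329.2 and 9307.9. The highest value of each of these groups was on an array of low correlation. Those arrays, of young cage rat 70 and young visible platform rat 65, had log2 ratios of 3' to 5' signal of 0.0459 and 0.00464. The 6 young yoked rats lay between 1866.3 and 4405.6 (median 2349.25), the 6 young hidden platform rats between 1425.7 and 2556.9 (median 2048.65), and aged cage rats read 1940.5, 2544.8, 2653.7, 3360.9 and 4124.4. Aged yoked rats lay between 1614.9 and 2486.4 (median 2172.7) and aged visible platform rats between 1063.4 and 4673.9 (median 2831.25). Aged minus young was -0.15 ± 0.20 (adjusted p = 0.755), and 0.10 ± 0.14 without the arrays of low correlation. Young hidden minus young cage was -1.13 ± 0.50 (adjusted p = 0.176), a comparison that called 5.28% of probe sets (4.35% higher, 0.934% lower) and no member. That difference was -0.57 without young cage rat 70, and -0.17 with the 3' to 5' ratio, whose group mean was lowest in young cage controls, as a covariate. With array quality weights it was -1.93 and passed (adjusted p = 0.000377, within a range to 0.999 over 11 alternatives). Those weights called 28.3% of all probe sets in that comparison. B rats stood 0.76 ± 0.30 above young hidden platform rats (adjusted p = 0.495), a comparison with 0 calls among 5244 and 424 probe sets at an unadjusted p under 0.05. Without the 23 arrays that last difference was 0.71 and passed (adjusted p = 0.0315, within a range from 0.00193 to 0.803 over its 11 alternatives). That setting called 0.648% of all probe sets there.

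RT1-Ba, the class II alpha chain, had 2 tested probe sets that did not move alike, and neither was called in any of the 13 comparisons. By K02815_s_at, which can share sequence with related genes, the impaired rats lay between 236.0 and 947.2 with a median of 555.0. By the same probe set the unimpaired lay between 132.0 and 744.7 with a median of 331.0, and the B rats between 131.9 and 533.4 with a median of 363.95. The impaired group had the highest median of the 3, and all 3 overlapped. Impaired minus unimpaired was 0.61 ± 0.27 (adjusted p = 0.352) and B minus impaired was -0.63 ± 0.25 (adjusted p = 0.0825), with the impaired rats in both. The second of these passed where impaired rat 44 (-0.72) or impaired rat 52 (-0.74) was left out, with adjusted p-values from 0.0388 to 0.194 over the fits without 1 array. It was smaller without the 14 arrays of low correlation (-0.44, adjusted p = 0.195), without the 23 (-0.27, adjusted p = 0.577) and with centring on array medians (-0.25, adjusted p = 0.334). By M22366_at the same differences were 0.17 ± 0.34 and -0.40 ± 0.30.

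With age RT1-Ba gave 0.10 ± 0.20 by K02815_s_at and -0.45 ± 0.24 by M22366_at (adjusted p = 0.840 and 0.277), the second of which was -0.27 ± 0.24 without the arrays of low correlation. The 3 young cage rats read 436.5, 628.0 and 911.4 by K02815_s_at and the 5 aged cage rats 234.3, 370.0, 381.0, 381.5 and 479.2. The cage groups overlapped at 1 value, with most aged animals lower. The 8 aged yoked rats lay between 304.2 and 1220.4 (median 463.65) and the 6 young yoked rats between 185.2 and 457.1 (median 286.95). In hidden platform rats the young lay between 255.4 and 1832.9 (median 319.45), the highest of them on the array of rat 39. By M22366_at, aged visible platform rats lay between 168.5 and 1220.5 (median 234.05), and aged hidden minus visible was -0.88 ± 0.34 (adjusted p = 0.313), in a comparison that called 0.0191% of probe sets. That difference was -0.60 without aged visible platform rat 67, which gave the highest value, and it passed only with array quality weights (-0.86, adjusted p = 0.0306) among 11 alternatives, whose adjusted p reached 0.623. Those weights called 9.78% of all probe sets there. The correlation between the tested RT1-Ba probe sets was 0.54 over 79 arrays and 0.42 over the 65 arrays that were not of low correlation, of log2 values with each group's mean removed.

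Cd74, the invariant chain, gave low signal on all 4 of its probe sets, with means from 24.4 to 103 against a filter value of 116.9. Signal was at or under the pseudocount of 15 on 6, 7, 34 and 50 of the 79 arrays, so that these levels carry little precision. By X13044_at, the brightest, group medians lay between 34.3 in young visible platform rats and 115.6 in aged visible platform rats. Young yoked rats lay between 9.8 and 105.8 (median 46.1), and aged yoked rats reached 266.1 (median 85.2). The impaired rats lay between 7.3 and 683.8 (median 74.1), the highest on the array of low correlation of rat 8, while B rats lay between 3.8 and 315.7. No group stood outside the range of the others. With no filter on low signal 1 of the 4 probe sets passed in 1 of 12 comparisons: X14254cds_at gave B minus impaired as -0.90 (adjusted p = 0.0263), with medians of 11.75 in B rats and 34.45 in impaired rats, close to or under the pseudocount in the B group. With no filter that comparison called 21.3% of all 8740 probe sets, with a median of -0.39 over all of them.

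**Figure D2:**
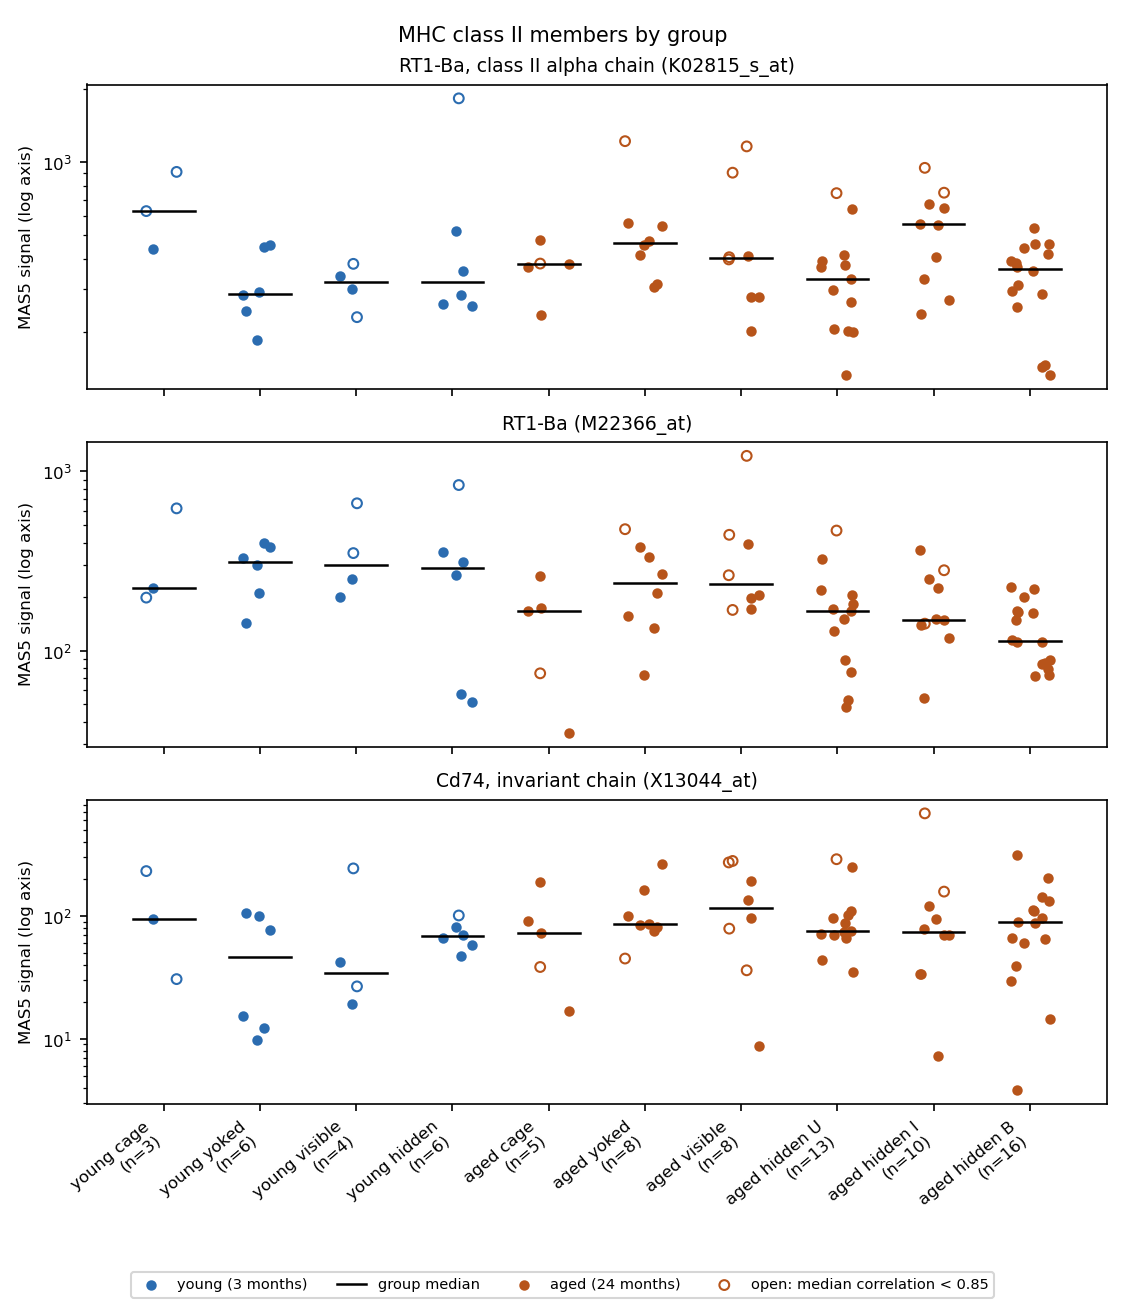
MAS5 signal on a log axis (vertical) of RT1-Ba by its 2 tested probe sets and of Cd74 by its brightest probe set, on each array by group (horizontal), with medians as lines and arrays of low correlation as open circles. The highest RT1-Ba value by K02815_s_at, 1832.9, is the open circle of a young hidden platform rat, and the groups overlap for every probe set.

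Irf1, a transcription factor induced by interferon gamma, had similar levels on most arrays by its brighter probe set. By M34253_g_at the aged cage rats read 540.7, 545.7, 559.4, 586.9 and 613.9, and the young cage rats 621.0, 851.4 and 896.2. Those groups of 5 and 3 did not overlap, and how often this holds over all probe sets was not counted. The young values 621.0 and 896.2 and the aged value 540.7 were on arrays of low correlation. Aged minus young was -0.45 ± 0.27 in cage controls, beside a median of -0.27 over all probe sets tested. The age difference over all treatments was -0.09 ± 0.11 (adjusted p = 0.681). Impaired rats lay between 485.8 and 1147.2 with a median of 760.6, and unimpaired rats between 401.2 and 706.6 with a median of 585.2. The impaired were thus higher in median, by 0.39 ± 0.15 in the fit (adjusted p = 0.314), with 9 of 10 above the unimpaired mean. This became 0.06 under median centring, and it missed the threshold under each of its 12 other alternatives and 44 fits without 1 array. The B rats spread from 224.1 to 987.7 with a median of 667.75, and B minus impaired was -0.18 ± 0.16. Irf1's other probe set, M34253_at, lay below the filter, between 14.3 and 397.8.

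Irf8, a factor that myeloid cells and microglia need for their development, gave a median of 95.5 over all arrays. Group medians lay between 68.7 in young cage rats and 110.0 in young yoked rats. The highest values were 819.5 and 448.5 in impaired rats 83 and 8, 447.1 in young hidden platform rat 39 and 423.7 in young visible platform rat 30, all on arrays of low correlation. On the other 65 arrays Irf8 lay between 23.4 and 175.2. Aged minus young was -0.04 ± 0.25 (adjusted p = 0.948). Impaired minus unimpaired was 0.59 ± 0.37 with all arrays and 0.20 ± 0.25 without those of low correlation, and B minus impaired was -0.57 ± 0.31 and -0.06 ± 0.22. Irf8 passed in none of the 13 comparisons.

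Rsad2, the antiviral gene viperin, had 2 tested probe sets. By Y07704_g_at the impaired rats lay between 83.6 and 773.8 with a median of 185.85, the unimpaired between 24.6 and 416.4 with a median of 121.0, and the B rats between 22.8 and 319.2 with a median of 111.95. The top value of the impaired and of the unimpaired group came from an array of low correlation. Impaired minus unimpaired was 0.81 ± 0.38 (adjusted p = 0.372), and 0.55 ± 0.29 without those arrays. B minus impaired was -0.91 ± 0.35 (adjusted p = 0.0680), and it passed with no filter (adjusted p = 0.0495, within a range to 0.379 over 11 alternatives), without B rat 86 (adjusted p = 0.0479) and without impaired rat 52 (-1.06, adjusted p = 0.0334). With no filter 21.3% of all probe sets were called in that comparison. The difference was -0.52 ± 0.29 without the arrays of low correlation (adjusted p = 0.233). By Y07704_at the same differences were 0.42 ± 0.32 and -0.45 ± 0.29 (adjusted p = 0.498 and 0.273), the second of which was -0.25 ± 0.25 without the arrays of low correlation. In aged hidden against visible platform rats Rsad2 gave 0.34 ± 0.37 by Y07704_g_at with all arrays and 1.04 ± 0.35 without those of low correlation, 4 of which are visible platform arrays (adjusted p = 0.744 and 0.229). With age the probe sets gave 0.06 ± 0.25 and 0.06 ± 0.22.

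**Figure D3:**
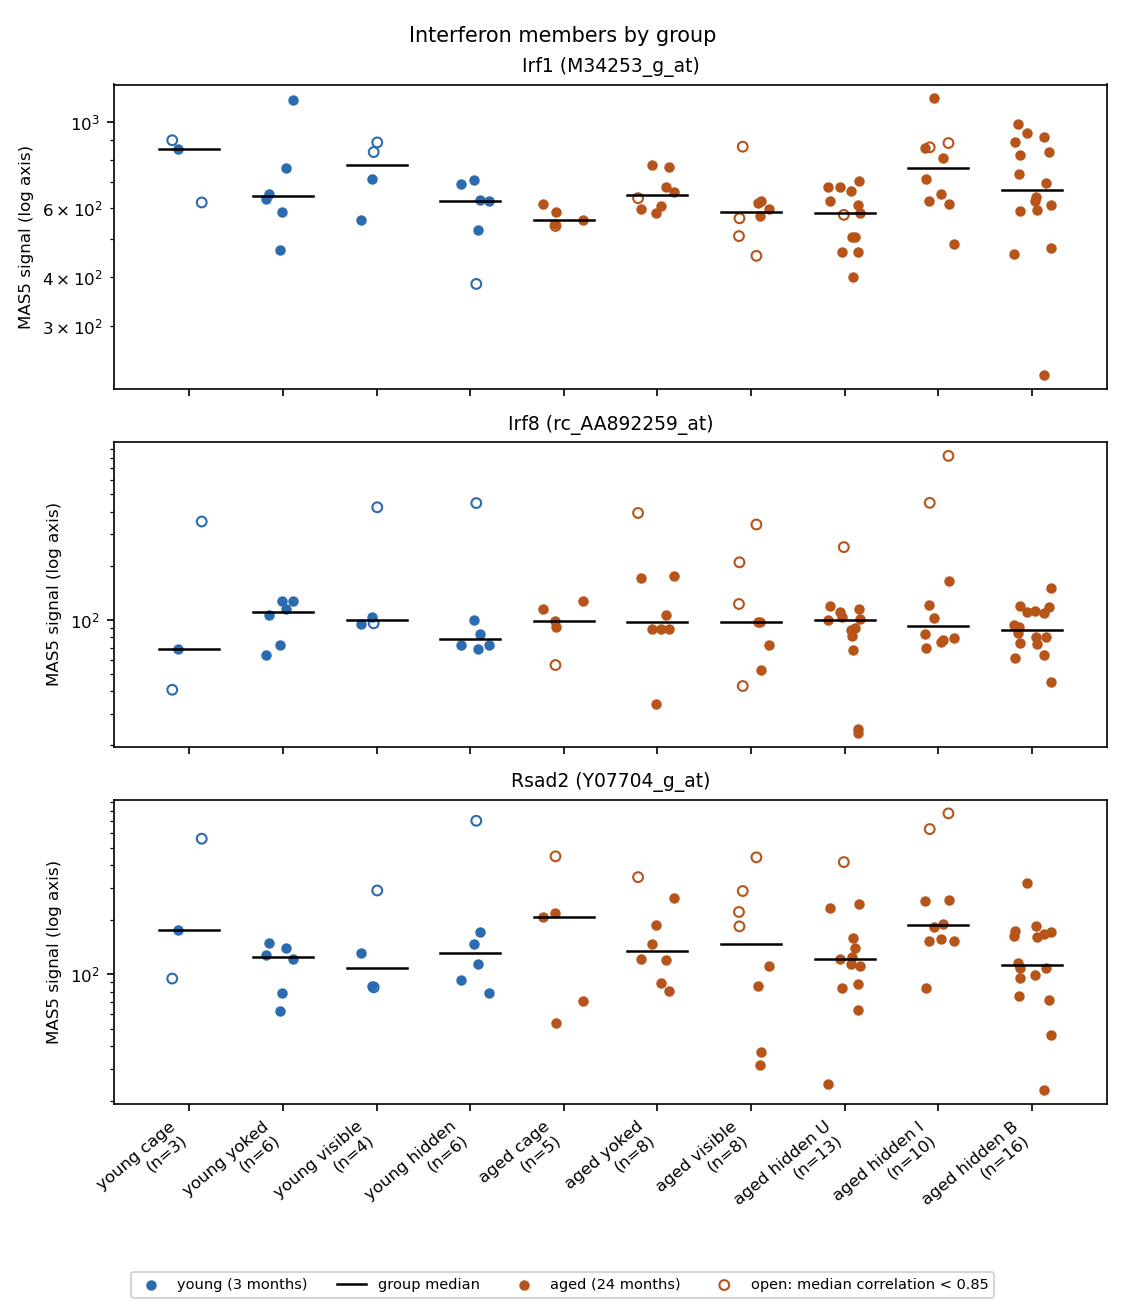
MAS5 signal on a log axis (vertical) of Irf1, Irf8 and Rsad2 on each array by group (horizontal), with medians as lines and arrays of low correlation as open circles. For Rsad2 the top value of every group that holds an open circle is one, up to 773.8 in the impaired group, while Irf1 stays between 224.1 and 1147.2.

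Across the 13 comparisons the 8 tested probe sets gave 2 calls, RT1-CE12 with age and B2m between B and impaired rats. Those 2 comparisons called 5.13% and 12.0% of all probe sets tested, so 1 member of 8 in each is near the share over all. The members' median difference with age was 0.01, beside -0.05 over all probe sets tested. In impaired against unimpaired rats it was 0.41 beside 0.04, with 4 of 8 (50.0%) at an unadjusted p under 0.05, beside 12.9% of all probe sets, and 0 called. Of those 4, B2m was lower in impaired rats, and RT1-Ba (K02815_s_at), Irf1 and Rsad2 (Y07704_g_at) were higher. With no filter on low signal the median over all probe sets was 0.32. Without the arrays of low correlation the members' median was 0.29 beside 0.06. In B against impaired rats it was -0.43 beside -0.03, with 3 of 8 (37.5%) at an unadjusted p under 0.05, close to the 32.1% of all probe sets. Without the arrays of low correlation it was -0.19 beside -0.06, with 1 of 8. The impaired arrays enter both of these comparisons. No member passed in the interaction of age with treatment, which called 0.305% of probe sets, in B against unimpaired rats, which called 0.0572% (0.0381% higher), or in aged yoked rats against cage controls, which called 0.0191%. No probe set at all passed in aged hidden platform rats against yoked rats (155 with an unadjusted p under 0.05) or cage controls (449), or in young hidden platform rats against visible platform (274) or yoked rats (93), and the smallest adjusted p of a member in these 4 was 0.864.

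**Figure D4:**
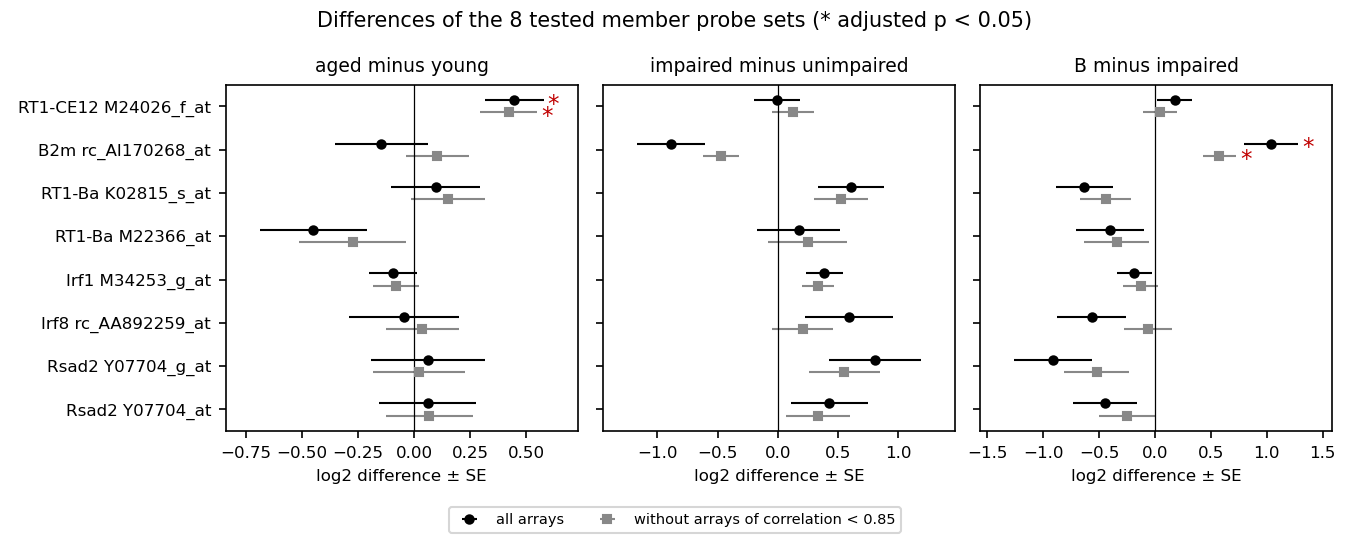
Log2 differences with standard errors (horizontal) of the 8 tested probe sets (vertical) for age, impaired minus unimpaired and B minus impaired, with all arrays (black) and without the 14 arrays of low correlation (grey), with a star at an adjusted p under 0.05. RT1-CE12 lies at 0.45 and 0.42 with age, and B2m falls from 1.03 to 0.58 in B minus impaired when those arrays are left out.

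The other genes of class I presentation were read from a list of 24, of which 15 were on the array and 14 were tested. With age RT1-CE12 alone was called, 8 of the 14 were higher, and the median was 0.08. Calr, the chaperone calreticulin that helps load class I molecules, gave 0.66 ± 0.23 (adjusted p = 0.0761), RT1-CE16, a further class I heavy chain, 0.47 ± 0.19 (adjusted p = 0.128), and Canx, the chaperone calnexin, -0.56 ± 0.24 (adjusted p = 0.152). In B against impaired rats B2m was called higher and Psmb8, a subunit of the immunoproteasome, was called lower, with a list median of -0.18. These were the calls among the 14, where 5.80% of all probe sets were called higher and 6.20% lower. In young hidden platform rats against cage controls, where 5.28% of all probe sets were called and 4.35% called higher, 3 of the 14 were called, all higher: Psme2, a proteasome activator, Calr and Pdia3, a disulfide isomerase of peptide loading. That comparison called 0 probe sets in all with the 3' to 5' covariate and 4 without young cage rat 70, and 2 of its 3 cage arrays are of low correlation.

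The class II list held 11 genes, 9 on the array and 8 tested, and none was called in the 12 comparisons of 2 conditions. With age 6 of the 8 were higher, with a median of 0.26 beside -0.05 over all probe sets. RT1-DMa, a chain of the molecule that exchanges class II peptides, gave 0.54 ± 0.22 (adjusted p = 0.129), its partner RT1-DMb 0.34 ± 0.19, and RT1-Da, a class II alpha chain, 0.30 ± 0.21. In interferon signalling 16 of 24 listed genes were on the array and 8 were tested, with 0 called with age and a median of 0.06. Nfkb1, a subunit of NF-kappa B, gave 0.54 ± 0.23 (adjusted p = 0.141), Jak2, a receptor-associated kinase, 0.30 ± 0.20, and Stat2 0.08 ± 0.13. Jak2 was the 1 call among the 8 tested genes of that list in B against impaired rats. It was lower there, in a comparison that called 12.0% of all probe sets. Of 26 genes induced by interferon, 10 were on the array and 6 were tested, none was called in those 12 comparisons, and the median with age was -0.08. Among them Adar, an RNA editing enzyme, gave -0.46 ± 0.26, Oas1a, an RNA sensor, -0.22 ± 0.17, and Eif2ak2, the kinase PKR, -0.15 ± 0.15.

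Markers of the cell types in the punch moved in part with these results. Hpca and Nrgn, which pyramidal neurons express strongly, had median signals of 11189.5 and 16202.3. Of the 7 pyramidal neuron markers on the array 5 passed the filter, with medians from 718.1 to 16202.3, while Camk2a (93.5) and Slc17a7 (17.7), a kinase and a glutamate transporter of these neurons, lay below it. Of the microglia and macrophage list 10 of 16 genes were tested, 7 were higher with age, and C1qb, a chain of complement C1q, was called. The age comparison called 5.13% of all probe sets tested, 3.20% as higher and 1.93% as lower. The summed signal of the 12 microglia and macrophage genes on the array had group medians from 6534.95 to 9234.8 in young rats. In aged rats the group medians lay between 8394.8 and 9215.75. Single arrays ran from 3810.4 to 10888.5 in young and from 5792.8 to 12517.4 in aged rats. Aqp4, the water channel of astrocytes, was also called higher with age (1 of 5 tested astrocyte markers), as was Gria1 among 5 pyramidal neuron markers, of which Pcp4 was called lower. Col1a2, 1 of 6 markers of choroid plexus and meninges, was called lower, and no marker of lymphocytes (2 tested), blood (3), vessels (7) or oligodendrocytes (6) was called. The part of these markers in the RT1-CE12 difference was not tested. In B against impaired rats no microglial marker was called, and Pecam1 and Kcnj8 of the 7 tested endothelial and mural genes were called lower. That comparison called 12.0% of all probe sets tested, 6.20% as lower. The 5 tested pyramidal neuron markers were all higher in B than in impaired rats, with a median of 0.46 and 0 called. The medians of the other marker lists ran from -0.87 (endothelial and mural) to 0.46 (astrocytes). The summed signal of all 7 pyramidal neuron markers on the array ran from 4315.6 to 42895.6 in impaired rats, with a median of 39714.1. In B rats that sum ran from 32914.2 to 58192.9, with a similar median of 39311.6. Its part in the B2m difference was not tested. Of 9 lymphocyte markers on the array, median signals lay between 14.1 (Cd2) and 177.6 (Cd8b), with Cd3d at 17.5 near the pseudocount, and Cd8b and Cd4 (146.0) passed the filter.

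Over the 79 arrays, with each group's mean removed, the profile of RT1-CE12 was most like that of RT1-CE16, with a Pearson correlation of 0.77, and of 0.81 over the 65 arrays not of low correlation. Both probe sets are of the class I sequence family and may bind the same transcripts. B2m was most like Psmd1, a proteasome subunit (0.85, and 0.68 over the 65 arrays), Scg3 and Hspd1. Its correlation with RT1-CE12, its partner chain, was -0.17, and -0.39 over the 65 arrays. Cd74 was most like the class II chain RT1-Da (0.54, and 0.55), ahead of Il18 and Rbl2. Irf1 was most like Bdnf (0.55, and 0.58), Tbk1 and Fam135a. RT1-Ba was most like Tyro3 (0.81, and 0.76), Irf8 most like Ugt2b7 (0.75, and 0.35) and Rsad2 most like Ebp (0.78, and 0.56). These are descriptions across arrays that share groups and scaling, and most were lower without the arrays of low correlation, among them Scg3 (0.84 to 0.49) and Hspd1 (0.82 to 0.57) for B2m. Those of RT1-CE16, RT1-Da and Bdnf were among the ones that were not.

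When the 10 groups were put in order of their mean log2 signal, neighbours differed by less than the smaller of their standard deviations at every step for 6 of the 7 genes. For B2m 1 of the 9 steps was larger, that from aged visible platform rats (11.41 ± 0.61, SD, n = 8) to aged yoked rats (11.01 ± 0.26, SD, n = 8). The order for B2m ran from young cage rats (12.09 ± 1.17, SD, n = 3) to impaired rats (10.67 ± 1.17, SD, n = 10). For RT1-CE12 it ran from aged yoked rats (10.59 ± 0.37, SD, n = 8) to young cage rats (9.65 ± 0.87, SD, n = 3), with the 6 aged groups first.

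The level of most members went with the correlation of the array itself. Rsad2 by Y07704_g_at had a median of 380.05 on the 14 arrays of low correlation and 121.0 on the other 65, and in 8 of the 8 groups that hold such an array the highest value came from one. Irf8 had medians of 296.8 and 90.7, and RT1-Ba by K02815_s_at of 746.35 and 355.1, each with the highest value on such an array in 7 of 8 groups. The medians of the class I genes went the other way: RT1-CE12 had a median of 881.7 on the arrays of low correlation and 1240.4 on the others, and B2m of 2022.1 and 2653.7, each with the lowest value on such an array in 5 of 8 groups. For B2m the highest value was on such an array in 3 of 8 groups, among them its highest values of all, 9444.7 and 9307.9. For Irf1 the medians were 628.95 and 627.2. These arrays were unevenly spread over the groups.

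**Figure D5:**
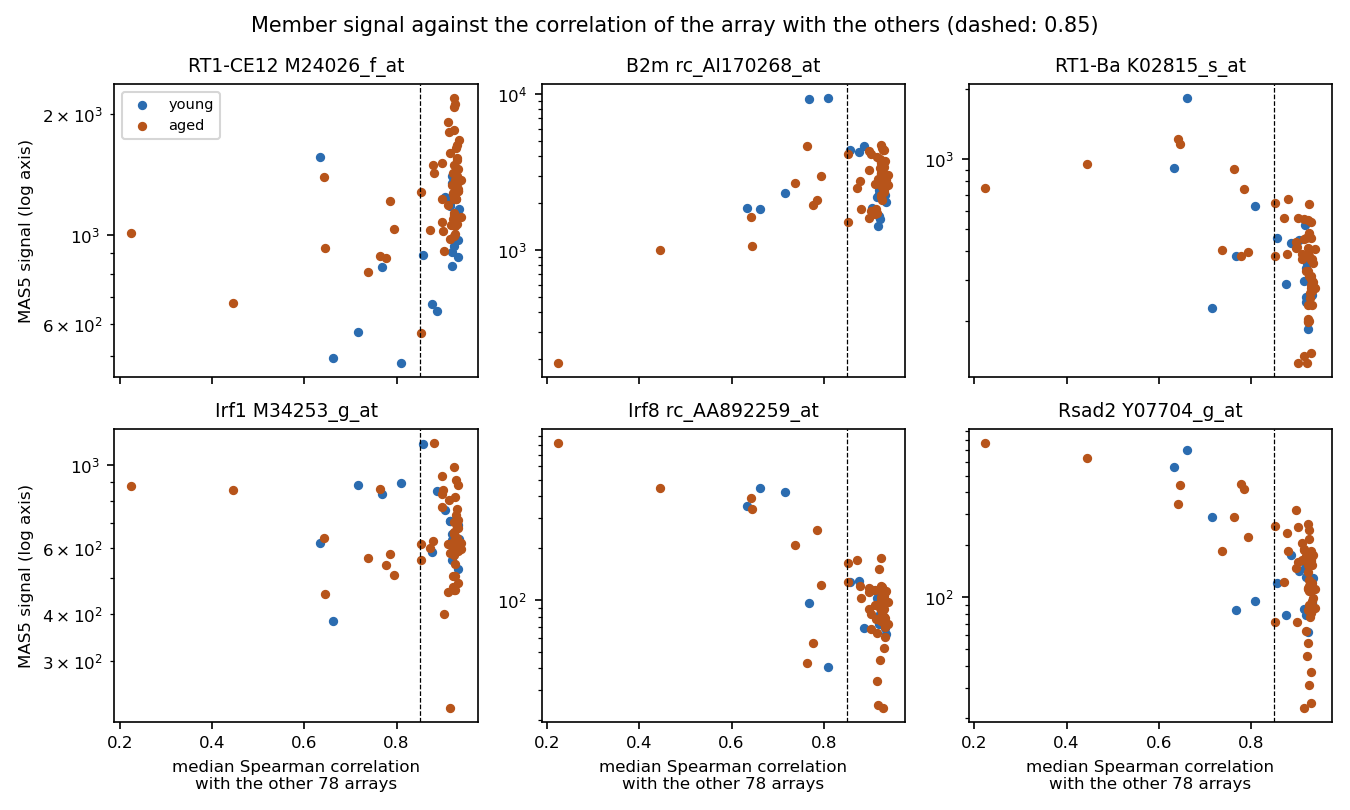
MAS5 signal on a log axis (vertical) of 6 member probe sets against the median Spearman correlation of each array with the other arrays (horizontal), young in blue and aged in orange, with the limit of 0.85 dashed. Left of the line RT1-Ba, Irf8 and Rsad2 reach their highest values, and B2m its lowest, 188.7, at a correlation of 0.223.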

How the data were processed

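The authors deposited a linear intensity for each probe set of each array, computed with MAS5 as the submitters' processing notes name it. After trimming 2% of values at each end, array means lay between 499.34 and 500.0, so a common scale had been set. Detection calls were not used, and no genome build of the probe sets is given in the sources used here. RNA went through 2 rounds of amplification, per the labels' protocols, which can favour 3' ends.

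Groups came from the titles. After 59 controls and the dimmest 40% of probe sets by mean were dropped, log2(signal + 15) was fitted with limma 3.58.1 (lmFit, eBayes with trend, R 4.3.3), two-sided, with Benjamini-Hochberg adjustment over 5244 probe sets. This scale understates folds of dim genes. The code was tested on simulated data. Age was fitted on 63 arrays with treatment added, its interaction with treatment by an F statistic on 3 degrees of freedom, aged groups on 44 arrays, young groups on 19, B against aged groups on 60 and B against young on 79. Each array is 1 animal. The highest Spearman correlation of a pair of arrays was 0.976, and no pair was identical. Array correlations use all non-control probe sets. They were first taken over the tested probe sets, which put 23 arrays and not 14 under 0.85, and this was changed before any fit to follow earlier work on these data. Leaving out the 23 is an alternative added after the data were seen. The other alternatives were a pseudocount of 1 or 60, no filter or one at 60%, quantile normalization, centring on medians, array quality weights, a covariate for the 3' to 5' ratio of control transcripts, robust eBayes without trend, 1 joint fit of all 79 arrays, leaving out the 14, and leaving out each array. Levels are compared only within a probe set. All probe sets of the 7 genes are described. From each of 4 gene lists the 3 further genes of smallest p with age are named, besides called genes and, for likeness, those of highest Pearson correlation. The members and lists were chosen with earlier results of these data known. Promoters are from RefSeq (GRCr8).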

Additional observations from a re-analysis of the deposited data

Results flagged for a closer look

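A single animal stood far from the rest of its group, by Dixon's criterion on log2 values, in 12 of 98 combinations of a member probe set and a group of 4 to 10 arrays, where chance gives about 1 in 20. All 12 were on arrays of low correlation, 6 different arrays, and 10 were high. In young hidden platform rat 39 the high values were 1832.9 for RT1-Ba (K02815_s_at; next 519.3), 704.4 for Rsad2 (Y07704_g_at; next 171.4), 447.1 for Irf8 (next 99.5) and 143.0 for Cd74 (X14254cds_g_at; next 13.2). In aged yoked rat 63 they were 1220.4 for RT1-Ba (K02815_s_at; next 558.5), and 141.3 and 68.4 for Cd74 (X14254cds_at and X14254cds_g_at). In impaired rat 83 B2m was low at 188.7 (next 1010.4) and Cd74 high at 308.4 (X14254cds_g_at). B2m was also low in aged visible platform rat 67, at 1063.4 (next 2496.6). Irf8 was high in young visible platform rat 30, at 423.7, and Cd74 in aged cage rat 99, at 52.1 (X14254cds_at).

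The age difference of RT1-Ba by K02815_s_at was -0.78 in cage controls, where all 5 aged rats lay below the young mean, and 0.66 in yoked rats, where all 8 lay above it. The lowest aged yoked value, 304.2, lay only just above the young yoked mean, and 2 of the 3 young cage arrays are of low correlation. How often such opposite directions occur over all probe sets was not counted. The interaction of age with treatment for this probe set did not pass (p = 0.0875, adjusted p = 0.431, limma).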

How the results depend on the processing

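No paired analysis was possible because the replicate numbers are animal numbers and none occurs in 2 groups. The count of members called with age was 1 in the fit as described and 0 with no filter, with quantile normalization, with median centring and without the 23 arrays, and it ranged from 0 to 1 when 1 array was left out. In B against impaired rats it was 1, became 3 with no filter (Rsad2 and a Cd74 probe set in addition to B2m) and 0 without the 23 arrays, and ranged from 1 to 3 when 1 array was left out. With no filter that comparison called 21.3% of the 8740 probe sets, with a median of -0.39 over all of them. With array quality weights, whose estimation stopped before its tolerance in some fits, 2 were called in the interaction, beside 35.3% of all probe sets. In aged hidden against visible platform rats 1 was called, beside 9.78%, and in young hidden platform rats against cage controls 2, beside 28.3%. In B against young hidden platform rats 3 were called, beside 13.5%, and 1 without the 23 arrays, beside 0.648%. Each of these counts was 0 in the fit as described. Of the 12 member differences recomputed under every alternative, which are those with an unadjusted p under 0.05, none changed sign. Over all 96 member differences 17 changed sign without the 14 arrays, 5 of them with a size of at least 0.1 both ways, among them B2m with age (-0.15 to 0.10) and RT1-Ba by K02815_s_at in aged hidden against visible platform rats (-0.11 to 0.32); 2 were called in either setting. Young cage controls could not be compared, nor the interaction fitted, without the 23 arrays, which include all of that group.

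The number of probe sets called moved with the same choices: with age from 269 to between 77 (median centring) and 1134 (array weights), and between 171 (without young cage rat 70) and 434 when 1 array was left out; in B against impaired rats from 629 to between 123 (without the 23 arrays) and 1864 (no filter), and between 187 (without impaired rat 83) and 895; in young hidden platform rats against cage controls from 277 to between 0 (3' to 5' ratio as covariate) and 1484, and between 4 (without young cage rat 70) and 533; and in the interaction from 16 to between 0 and 1850, and between 1 and 125. With array quality weights, comparisons with 3 calls or fewer reached 513 (aged hidden against visible platform), 118 (against cage), 75 (aged yoked against cage), 22 (young hidden against visible platform), 436 (B against unimpaired) and 710 (B against young). The median over all probe sets in B against impaired rats was -0.03, and it was 0.18 with quantile normalization, 0.35 with median centring, -0.39 with no filter and 0.17 with the 60% filter; in impaired against unimpaired rats it was 0.04, and -0.17, -0.28, 0.32 and -0.13. The calls in B against impaired rats were 304 higher and 325 lower, 321 and 96 with quantile normalization, and 939 and 112 with median centring; B2m was called higher in each. With age 62.5% of calls were higher, and 71.1% with quantile normalization. Signal near the pseudocount limits Cd74 most.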
